A study of Mus musculus with 4 samples.

Results

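ATAC-seq signal was followed at 9 interferon response genes of mouse mesenchymal stem cells (MSCs), to ask whether a move from low to atmospheric oxygen alters their chromatin. ATAC-seq marks open chromatin by the sites at which the Tn5 transposase can insert adapters. The genes were the transcription factors Stat2, Irf1, Irf7 and Irf9 and the effectors Isg15, Ifit1, Ifit3, Ifih1 and Bst2, and every peak that overlapped one of them or lay within 5 kb of it in GENCODE M21 was taken. This gave 27 of the 128055 peaks of the table, 8 at the transcription factors and 19 at the effectors. The cells came from mice of 3 to 5 months and are called bone-marrow MSCs in the labels, while the methods of the study describe cells released from hind limb bones by collagenase. Cells of both groups had been grown in 2% O2 before the sort for CD45- Ter119- Sca-1+ CD140a+ cells, after which hypoxia cells stayed at 2% O2 and normoxia cells were moved to 21% O2, with no genetic change or other agent in either group. Each group had 2 libraries.

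Type I interferons are secreted when a cell senses foreign or misplaced nucleic acid. They bind a receptor whose kinases activate STAT proteins, and STAT2 joins IRF9 in the complex ISGF3. This complex binds the interferon-stimulated response element (ISRE) in front of the effector genes. Interferon gamma instead acts through the gamma-activated site (GAS). MSCs are known to keep some interferon-stimulated genes active without infection, and many of these promoters are open before any interferon arrives.

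The promoter sequences of the transcription factors and the effectors were compared for the elements through which the pathway acts. The RefSeq promoters (250 bases before to 50 after the start site, GRCm38.p6) held 11 entries for the 9 genes. They were searched on both strands for the ISRE core GAAANNGAAA, for GAS (TTCNNNGAA) and for the hypoxia response element core ACGTG, where N is any base. The ISRE core was found in the promoters of 5 of 5 effectors and of 1 of 4 transcription factors, against 3.44% of all 32851 mouse promoters in that set. The effector promoters are shown because the element recurs in each of them. Capitals mark the ISRE core, and the sequence is that of the gene's own strand.
Isg15, chr4:156200836-156200935, minus strand: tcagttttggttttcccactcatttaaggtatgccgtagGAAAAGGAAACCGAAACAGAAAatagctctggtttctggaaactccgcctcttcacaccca
Ifit1, chr19:34640749-34640848, plus strand: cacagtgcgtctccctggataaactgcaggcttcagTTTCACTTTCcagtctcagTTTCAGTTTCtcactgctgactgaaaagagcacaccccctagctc
Ifit3, chr19:34583345-34583444, plus strand: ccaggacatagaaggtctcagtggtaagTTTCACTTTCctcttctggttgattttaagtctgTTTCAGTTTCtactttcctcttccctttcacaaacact
Ifih1, chr2:62646206-62646235, minus strand: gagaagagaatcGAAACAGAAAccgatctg
Bst2, chr8:71537545-71537644, minus strand: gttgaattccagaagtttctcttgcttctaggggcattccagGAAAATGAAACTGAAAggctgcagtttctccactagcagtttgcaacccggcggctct

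The windows of Isg15, Ifit1, Ifit3 and Bst2 lie before the start site, with the start base counted as 0. Isg15 held 3 overlapping matches from -78 to -57, Ifit1 held 2 from -104 to -76, Ifit3 held 2 from -156 to -113 and Bst2 held 2 overlapping matches from -130 to -115. The single Ifih1 match lay after the start, at 32 to 41. Of the transcription factors, Stat2 held an ISRE core at -222 and Irf1 a GAS at -90, which are shown for contrast, with the ISRE core of Stat2 and the GAS of Irf1 in capitals.
Stat2, chr10:128270248-128270347, plus strand: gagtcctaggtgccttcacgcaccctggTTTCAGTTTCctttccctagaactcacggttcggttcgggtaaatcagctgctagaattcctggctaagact
Irf1, chr11:53769878-53769977, plus strand: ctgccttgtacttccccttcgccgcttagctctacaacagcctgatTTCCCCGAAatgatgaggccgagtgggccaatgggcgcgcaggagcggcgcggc

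In these windows GAS was found in Irf1 and Bst2 only among the 9 genes, and in 8.3% of all promoters. In Bst2 it overlapped the first ISRE core. The counts depend on the window, since the wider promoter peaks of Irf7 and Irf9 held 2 ISRE cores and 2 GAS in turn. The hypoxia response element core was found in none of the 11 entries and in 19.6% of all promoters. A match describes the letters of the window and shows no binding.

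The deposited signal is the number of reads in a peak scaled to the library total, and it was not divided by the width of the peak. Library totals ran from 26680936 to 29965523 reads, and the member promoter peaks held 24 to 404 reads per library. Nuclear peaks took 49.2% and 53.2% of the reads in hypoxia and 31.0% and 35.2% in normoxia, and mitochondrial peaks took 7.77% and 9.13% against 1.5% and 2.34%. Signal as deposited was lower in normoxia at most peaks of the genome, with a median log2 fold change of -0.44 over all peaks. Each library was therefore divided by a relative log expression (RLE) size factor, called scaling here, which brought that median to -0.0039. Fold changes give normoxia relative to hypoxia as differences of log2(value + 1). Significance was taken from limma at a false discovery rate (FDR) under 0.01 over all 128055 peaks. The part of the difference in library composition in the values as deposited was not tested. Of the markers of MSCs, 9 of 10 had a promoter peak, with a median signal of 101, and Lepr had none. Of the markers of blood cells and macrophages, 6 of 9 had a peak, with Ptprc, Itgam and Cd3e at none, Spi1 at 11.5 and Adgre1 at 2.98, although Cd68 reached 388 and Csf1r 85.6. The summed signal of the blood list in hypoxia was 663 and 637, against 416 and 459 in normoxia, and that of the MSC list was 1309 and 1301 against 763 and 843. Both sums are of values as deposited, which were lower in normoxia at most peaks. Of the endothelial markers, 3 of 4 had a peak, with a median signal of 23.3.

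The promoters of all 4 transcription factors were open in both conditions, and none changed at the threshold after scaling. STAT2 is the subunit of ISGF3 that carries its activation domain. The Stat2 promoter peak (chr10:128269801-128271200, over the first exon of Stat2 and an exon of Apof) had a signal of 118.9 and 126.5 in hypoxia and 77.6 and 73.8 in normoxia. Neither normoxia library reached a hypoxia library, and the scaled log2 fold change was -0.22 ± 0.13 (SE, limma; 95% interval -0.48 to 0.05; FDR 0.276). IRF1 is a transcription factor induced by interferon gamma. The Irf1 promoter peak (chr11:53769201-53771900, over its first exon) had a signal of 111.8 and 94.2 in hypoxia, against 60.7 and 68.4 in normoxia. The groups were again apart as deposited, but overlapped after scaling (log2 fold change -0.19 ± 0.14, interval -0.48 to 0.10, FDR 0.390). The value rested on the hypoxia libraries, since it was -0.020 without replicate 1 and -0.38 without replicate 2 of hypoxia.

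IRF7 amplifies the production of type I interferons. Its promoter peak (chr7:141261901-141267200) was 5300 bp wide, covered the whole gene and reached an exon of Phrf1. Its signal in hypoxia was 110.8 and 137.4, and in normoxia 77.2 and 84.8. The normoxia libraries were the lower ones with and without scaling, with a scaled log2 fold change of -0.13 ± 0.13 (interval -0.39 to 0.13, FDR 0.546), which was -0.23 without hypoxia replicate 1 and -0.038 without hypoxia replicate 2. IRF9 is the DNA-binding subunit of ISGF3. The Irf9 promoter peak (chr14:55602501-55605100, over exons of Irf9 and Rnf31) had a signal of 74.7 and 82.3 in hypoxia and 46.1 and 51.1 in normoxia. It too was lower in normoxia without overlap, and its scaled log2 fold change was -0.21 ± 0.14 (interval -0.50 to 0.09, FDR 0.351).

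**Figure D1:**
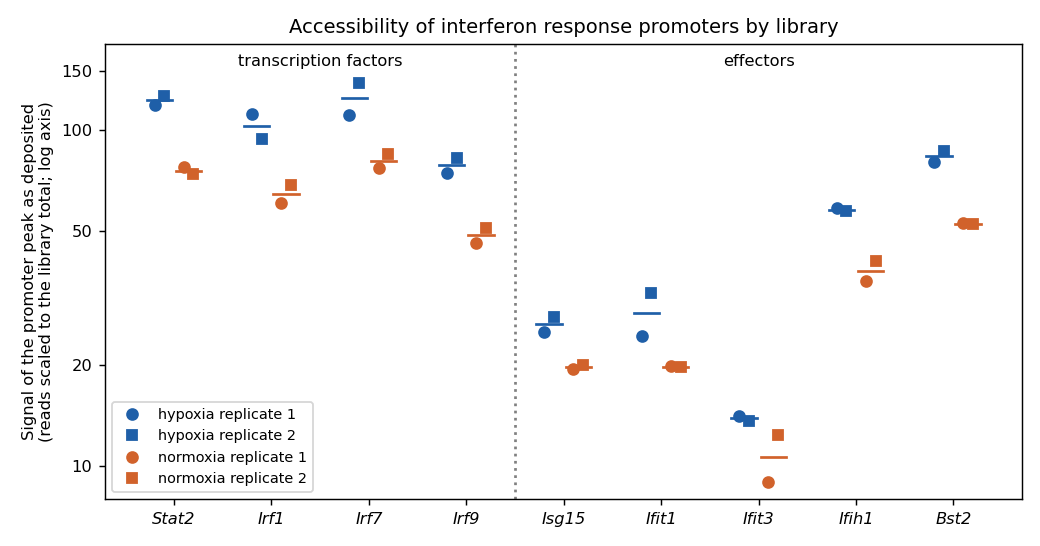
Signal of the promoter peak as deposited (reads scaled to the library total, log axis) for the 9 genes, with 1 point per library and a line at the mean of the 2 libraries of a condition. At each of the 9 promoters the normoxia points lie below the hypoxia points, as at 86% of all promoter peaks.

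The effector promoters spanned a wider range of signal as deposited, which is not divided by peak width, and included the weakest members. Per kb of peak in hypoxia the transcription factors had the wider range, from 23.4 (Irf7) to 87.6 (Stat2). The effectors ran from 15.4 (Ifit3) to 30.5 (Ifih1). ISG15 is a ubiquitin-like protein that is attached to other proteins. The Isg15 promoter peak (chr4:156199901-156201400, over the first exon) had a signal of 25.1 and 27.9 in hypoxia, against 19.5 and 20.02 in normoxia. The groups were apart as deposited and overlapped after scaling (log2 fold change 0.05 ± 0.21, interval -0.36 to 0.47, FDR 0.893). IFIT1 binds foreign RNA, and IFIT3 belongs to the same protein family. The Ifit1 promoter peak (chr19:34640201-34641500) is shared with a start site of Ifit1bl2, so its reads cannot be given to either gene. Its signal in hypoxia was 24.4 and 32.6, and in normoxia 19.9 and 19.7, with a scaled log2 fold change of -0.03 ± 0.21 (interval -0.45 to 0.39, FDR 0.938). The Ifit3 promoter peak (chr19:34582901-34583800) was the weakest of the 9, with a signal of 14.2 and 13.6 in hypoxia and 9.0 and 12.3 in normoxia. After scaling the Ifit1 and Ifit3 libraries of the 2 conditions overlapped, and the log2 fold change of Ifit3 was 0.08 ± 0.27 (interval -0.46 to 0.62, FDR 0.884).

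IFIH1, also called MDA5, senses long double-stranded RNA in the cytosol. The Ifih1 promoter peak (chr2:62645201-62647100, over the first exon) had a signal of 58.4 and 57.5 in hypoxia and 35.6 and 40.7 in normoxia. BST2, or tetherin, holds budding virus particles at the cell surface. The Bst2 promoter peak (chr8:71535501-71538300, over the first exon) had a signal of 80.3 and 86.7 in hypoxia and 52.8 and 52.4 in normoxia. At both promoters the normoxia libraries stayed below the hypoxia libraries after scaling. The log2 fold changes were -0.12 ± 0.16 for Ifih1 (interval -0.45 to 0.20, FDR 0.652) and -0.18 ± 0.14 for Bst2 (interval -0.47 to 0.11, FDR 0.415).

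None of the 9 promoters was called lower or higher by limma after scaling, where 16.7% and 0.441% of all 17670 promoter peaks were. None of the 9 had an unadjusted p under 0.05, a level at which 44.1% of all promoter peaks were lower and 3.88% higher. Edges of the intervals ran from -0.50 to 0.62 on the log2 scale. A change inside the interval of a promoter is therefore not excluded by these libraries. The 9 promoters had a median log2 fold change of -0.13, with a range of -0.22 to 0.08 and 7 negative values, beside -0.27 over all promoter peaks. The signs depended on the scaling, since the median was 0.022 with equal totals over nuclear peaks, and Stat2, Irf1 and Irf7 turned to 0.034, 0.030 and 0.13 with cyclic loess. In 5 of the 9 the normoxia libraries lay below the hypoxia libraries after scaling, as they did in 60.3% of all promoter peaks. Among 15229 genes with a promoter peak, the scaled fold changes of the members stood between the 59.9th and the 87.0th percentile, counted from the most negative. With the values as deposited, each of the 9 promoters was lower in normoxia without overlap, by 23.1% to 38.3% with a median of 34.7%, and 5 were called lower (Stat2, Irf1, Irf7, Irf9 and Bst2) and none higher, against 60.6% and 0.0736% of all promoter peaks. The median log2 fold change as deposited was -0.60 at the members and -0.73 over all promoter peaks.

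The transcription factor promoters had the more negative fold changes of the 2 roles, by a margin within the range of the standard errors of single promoters (0.13 to 0.27). The roles also differed in peak strength, with which fold changes varied, so role and strength cannot be told apart in this contrast. The median scaled log2 fold change was -0.20 over the 4 transcription factors, all of them negative, and -0.03 over the 5 effectors, 3 of them negative, a difference of -0.17. This difference turned to 0.04 with cyclic loess and 0.07 with quantile normalization. It was -0.092 without normoxia replicate 1 and -0.095 without normoxia replicate 2, and -0.16 and -0.21 without the hypoxia replicates in turn. The levels per kb of peak, with no RLE scaling, showed the same order of the roles in each library. The median over the transcription factors exceeded that over the effectors by 0.84 and 0.39 on the log2 scale in hypoxia and by 0.37 and 0.53 in normoxia, so the gap did not separate the conditions. No test was run on this gap, since an exact permutation test (two-sided) of these libraries cannot give a p below 0.333.

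Per kb of peak, the order of the members in hypoxia was led by Stat2 at 87.6 ± 3.82 (SD, n = 2) and by Irf1 at 38.1 ± 4.62. Ifih1 (30.5 ± 0.347), Irf9 (30.2 ± 2.07) and Bst2 (29.8 ± 1.61) followed and did not differ beyond their spread. Irf7 (23.4 ± 3.55) and Ifit1 (21.9 ± 4.47) also overlapped. Isg15 (17.7 ± 1.3) and Ifit3 (15.4 ± 0.436) had the lowest levels. By the mean of all 4 libraries per kb, Stat2 stood above 94.2% of gene promoters and Ifit3 above only 14.5%. In normoxia the order was the same but for Bst2 and Irf9, at 18.8 ± 0.114 and 18.7 ± 1.35, and ran from Stat2 at 54.0 ± 1.94 to Ifit3 at 11.9 ± 2.63. The level of Irf7 is an average over a peak that takes in the whole gene.

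The scaled fold change of promoter peaks across the genome varied with their strength, so the members were read against promoters of the same strength. All promoter peaks were split by mean signal, which was not divided by peak width, into 10 groups of 1767 each. A wide peak can therefore rank high. Irf7 stood above 58.0% of gene promoters by mean signal but above 26.8% per kb. Group 1, the weakest, with a mean signal of up to 6.25 and no member, had the most negative median log2 fold change, -0.58. From group 2 to group 10 the median log2 fold change went from 0.13 to -0.41. Ifit3 was in group 2 (0.08 beside its median of 0.13), Isg15 and Ifit1 in group 3 (0.05 and -0.03 beside -0.0083) and Ifih1 in group 5 (-0.12 beside -0.22). Irf9 and Bst2 were in group 6 (-0.21 and -0.18 beside -0.27), and Stat2, Irf1 and Irf7 in group 7 (-0.22, -0.19 and -0.13 beside -0.31). Thus 7 members lay above the median of their group and 2, Ifit1 and Ifit3, below it, each by less than its standard error except Irf7. The transcription factors were all in groups 6 and 7, while 3 of the 5 effectors were in groups 2 and 3. The share of promoter peaks called lower as deposited differed between these groups, at 10.9% in group 2 and 19.8% in group 3 beside 64.0% in group 5, 77.9% in group 6 and 86.4% in group 7. The 5 members called as deposited were those of groups 6 and 7, so roles and strength cannot be told apart in those calls. Nor can they be in the scaled difference between the roles, since the medians of groups 2 and 3 were above those of groups 6 and 7.

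**Figure D2:**
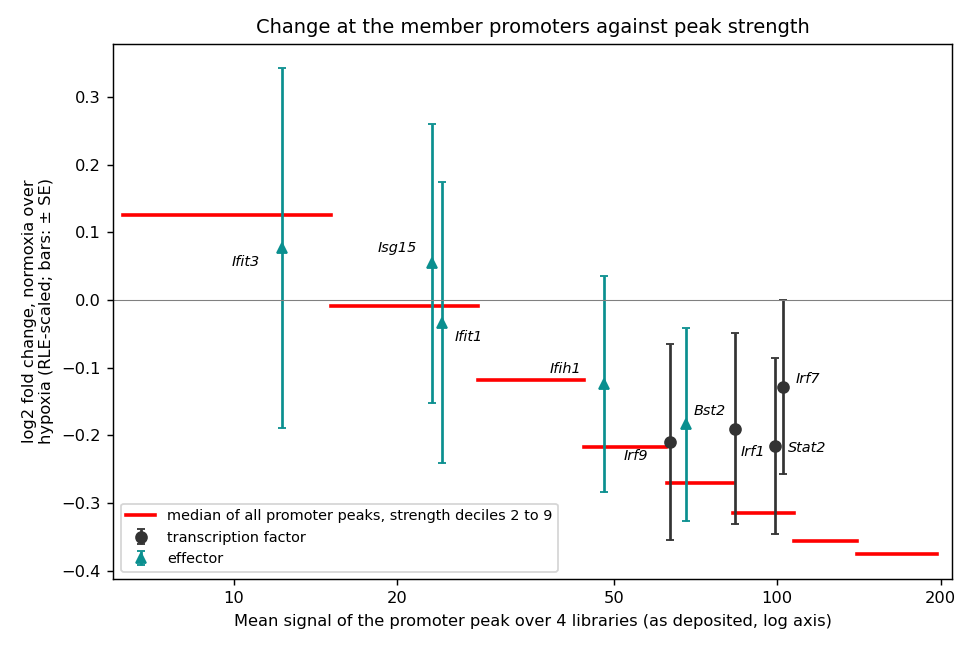
Scaled log2 fold change of the 9 member promoters (points with SE from limma; circles, transcription factors; triangles, effectors) against mean signal over the 4 libraries on a log axis, with red lines at the median of all promoter peaks in strength groups 2 to 9. Group 1, with a median of -0.58, and group 10 are not drawn. The member values range from 0.08 at Ifit3, the weakest peak, to -0.22 at Stat2, among the strongest.

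Outside the member promoters the spans held 18 further peaks, of which 3 were promoters of neighbouring genes. The promoter of Agrn, the gene of the matrix protein agrin, lay 524 bp past the end of Isg15 (chr4:156196101-156198900). Of the peaks in the 9 spans it had the highest signal as deposited. Per kb in hypoxia the Stat2 promoter (87.6) and the Mvb12a promoter (81.4) were above it (66.4). The Agrn peak had a signal of 177 and 195 in hypoxia and 98.9 and 109 in normoxia, and both normoxia libraries were lower with and without scaling. Its scaled log2 fold change of -0.36 ± 0.12 did not pass the threshold (FDR 0.036). The promoter of AW011738 on the other side of Isg15 (chr4:156202301-156205000) had a log2 fold change of -0.11 ± 0.15 (FDR 0.679), and that of Mvb12a beside Bst2 (chr8:71542301-71543800), a gene of the endosomal sorting machinery, -0.17 ± 0.13 (FDR 0.391). Isg15 thus stood between neighbours whose promoters were wider and, per kb in hypoxia, at 66.4 ± 4.42 (Agrn) and 26.9 ± 2.31 (AW011738) beside 17.7 ± 1.3.

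The remaining 15 peaks lay in introns, exons or flanks, and 10 of them had positive scaled fold changes, where 54.1% of all 110385 peaks at no promoter did. As deposited, 9 of the 15 were negative. Their median log2 fold change was 0.24, beside 0.05 for all peaks at no promoter, and -0.21 beside -0.39 as deposited, and their median GC content was 42.9%, beside 51.6% for the member promoters. In 6 of the 15 both normoxia libraries were above both hypoxia libraries after scaling, against 30.1% of all peaks at no promoter, and in none were they below, against 24.6%. Most were weak, with a median signal of 11.2, and the lowest, a 200 bp peak past the end of Irf1 (chr11:53780201-53780400), had a signal of 2.83 and 2.04 in hypoxia and 0 and 1.67 in normoxia. Its log2 fold change was the most negative of the 27 peaks but had a wide error (-0.84 ± 0.53, FDR 0.299). Each of the 27 peaks was assigned by the authors' caller to both conditions.

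As deposited, 9 of the 27 peaks were called lower in normoxia and none higher, against 24% and 0.391% of all peaks. A single member peak was called higher in normoxia after scaling and none was called lower, where 1.77% and 4.57% of all peaks were. It lay 3770 bp past the end of Ifit3, over an exon of Ifit1bl1, a relative of Ifit1 (chr19:34592501-34593700), and held no ISRE core. Its hypoxia libraries had a signal of 9.20 and 8.16 and its normoxia libraries 17.6 and 14.3, from 24 to 47 reads per library. Both normoxia libraries were above both hypoxia libraries even as deposited, where 6.94% of all peaks had that order. The scaled log2 fold change was 1.24 ± 0.27 (interval 0.69 to 1.80, FDR 0.0021). The call was lost with the values as deposited (0.81, FDR 0.0193). It was also lost with quantile normalization (FDR 0.0187), cyclic loess (FDR 0.0143) and limma without trend or robust estimation (FDR 0.0969), and it was not made by DESeq2. It was kept with edgeR on the recovered reads, with RLE factors (FDR 0.00051) and with TMM factors (FDR 0.00037). Equal totals (FDR 0.0012), a mean signal of at least 5 (FDR 0.00087) and a replicate block (FDR 0.00022) kept it too. So did pseudocounts of 0.1 (FDR 0.0048) and 5 (FDR 0.0021). Without either hypoxia library no peak of the whole table was called. The authors set a minimum mapping quality when finding peaks, which drops reads that fit several places equally well. Because Ifit genes are near copies in a cluster, reads could have been lost in this way here and at the Ifit1 and Ifit3 promoters. This was not tested.

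The strongest other peaks around Ifit1, Ifit3, Irf7 and Irf9 had positive scaled fold changes, none of which passed the threshold. The peak in an intron of Ifit1bl2 upstream of Ifit1 (chr19:34636501-34637500) had a signal of 13.1 and 10.2 in hypoxia, against 12.0 and 18.0 in normoxia. The groups overlapped as deposited and were apart after scaling, at a log2 fold change of 0.77 ± 0.27 (FDR 0.047). The peak past the end of Irf9 (chr14:55612701-55613800) had a signal of 5.66 and 10.2 in hypoxia, against 10.5 and 10.3 in normoxia, with a log2 fold change of 0.83 ± 0.31 (FDR 0.061). The peak over an exon of Cdhr5 upstream of Irf7 (chr7:141268401-141269600) had 11.7 and 6.12 in hypoxia, against 11.2 and 8.34 in normoxia, with overlapping groups and a log2 fold change of 0.60 ± 0.32 (FDR 0.211). The peak over the last part of Ifit3 itself (chr19:34588101-34589200) had 27.2 and 23.1 in hypoxia and 22.5 and 21.7 in normoxia (log2 fold change 0.28 ± 0.21, FDR 0.389), and was stronger per kb than the Ifit3 promoter, at 22.9 ± 2.65 beside 15.4 ± 0.436 in hypoxia and 20.1 ± 0.512 beside 11.9 ± 2.63 in normoxia.

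**Figure D3:**
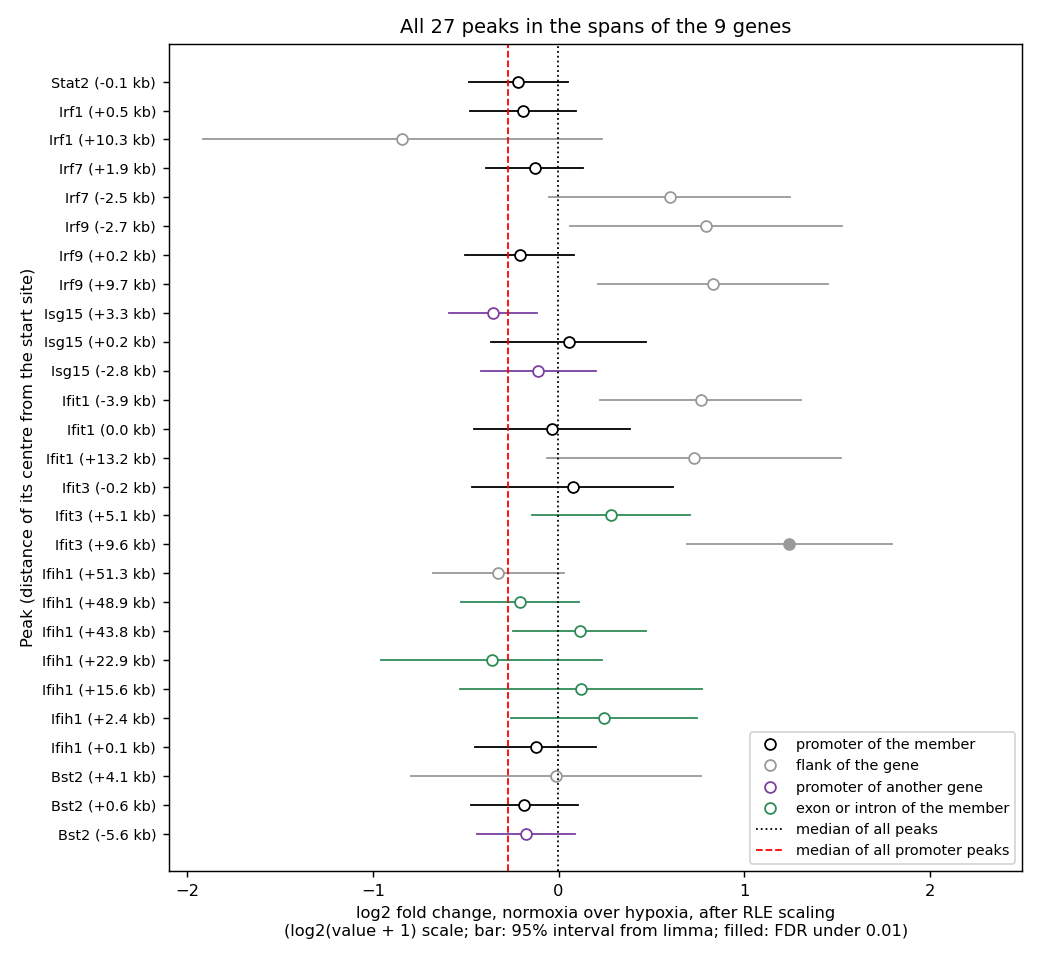
Scaled log2 fold change (normoxia over hypoxia, log2(value + 1) scale) of the 27 peaks with 95% intervals from limma, labelled by gene and distance of the peak centre from the start site, with colours for the kind of peak and lines at the medians of all peaks and of all promoter peaks. The promoters sit between -0.22 and 0.08, and the filled point, the peak past Ifit3 at 1.24, is the only one called.

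Ifih1 had the longest gene of the 9 and 7 peaks, and the strongest of them per kb were at its 3' end rather than its promoter. The peak over an exon near the end of the gene (chr2:62596401-62598200) had a signal of 63.3 and 79.9 in hypoxia, against 37.9 and 51.4 in normoxia, with a scaled log2 fold change of -0.21 ± 0.16 (FDR 0.400). Per kb this was 39.8 ± 6.5 in hypoxia and 24.8 ± 5.32 in normoxia, beside 30.5 ± 0.347 and 20.1 ± 1.90 at the Ifih1 promoter. The peak exceeded the promoter in each of the 4 libraries, although in normoxia the values of the 2 peaks overlapped between libraries. A further peak 198 bp past the end of the gene (chr2:62594301-62595600), chosen after its values were seen, had 47.6 ± 13.7 and 26.8 ± 5.29 per kb. Its log2 fold change was -0.32 ± 0.17 (FDR 0.211). The 4 other peaks inside Ifih1 ranged from -0.36 to 0.24 and none passed the threshold.

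**Figure D4:**
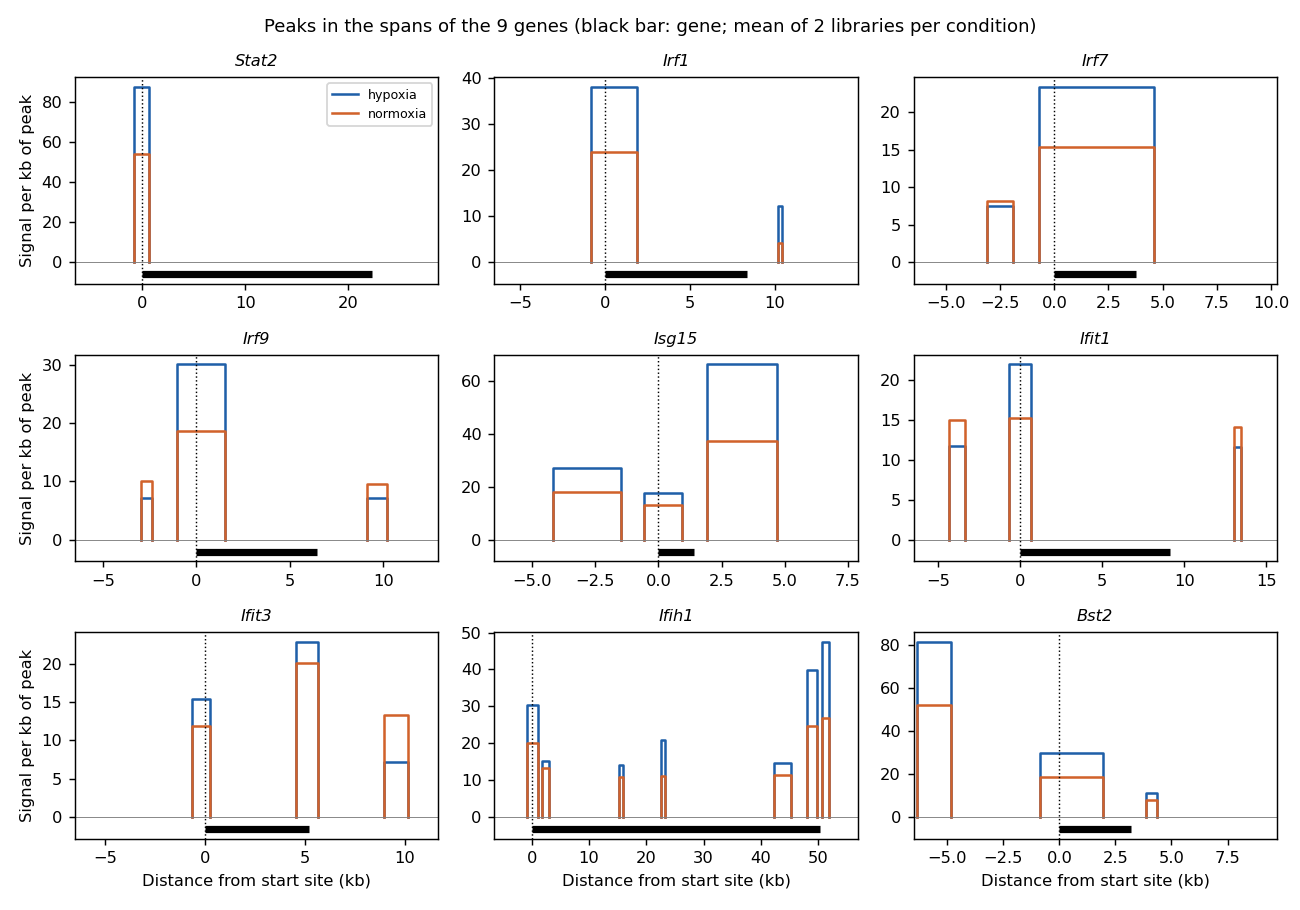
Mean signal per kb of each peak in the spans of the 9 genes (blue, hypoxia; orange, normoxia; 2 libraries each, values as deposited) against distance from the start site in kb, with the gene as a black bar and 1 vertical scale per gene. Hypoxia is the higher line at each promoter, and normoxia is the higher line at the peak past Ifit3, 13.3 beside 7.23.

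The ISRE core was also counted inside the peaks themselves. It was found in 7 of the 9 member promoter peaks, all but those of Irf1 and Irf9, and in 26.4% of all promoter peaks. In peaks of the same width as each member promoter, the share ranged from 13.5% for the 900 bp of Ifit3 to 43.3% for the 5300 bp of Irf7. Of the 15 member peaks at no promoter, 2 held the element, the peak upstream of Irf7 and the peak past Irf9, and of the 3 promoters of neighbouring genes none did.

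The rest of the pathway was followed over 77 further genes grouped by role, of which 72 had a promoter peak and shared 70 peaks. Batf2, Oas1a, Oas2, Oasl2 and Ifi44 had none. After scaling 8 of the 70 were called lower in normoxia and none higher, which is 11.4% against the 16.7% of all promoter peaks, and 28 were lower and 1 higher at an unadjusted p under 0.05, where 44.1% and 3.88% of all promoter peaks were. The 1 higher was Dhx58, a regulator of RNA sensing, at 0.35 ± 0.14 (FDR 0.083), which was named after its value was seen. The median log2 fold change was -0.24 with 63 negative and 7 positive values. As deposited, 46 were called lower, which is 65.7% against 60.6%. None of the 8 calls was kept with quantile normalization or cyclic loess. With any 1 library left out, 1 library remains in that group and calls cannot be read. Without hypoxia replicates 1 and 2 in turn the log2 fold change was -0.70 and -0.72 for Ifngr1 and -0.50 and -0.51 for Socs1. For Myd88 it was -0.34 and -0.44.

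Of the ligand and receptors, Ifnb1, the gene of interferon beta, had a low signal in a peak of 300 bp, from 3.18 to 4.42 per library. This was 9 to 13 reads per library. Per kb it had 12.7 in hypoxia and 12.4 in normoxia, beside 15.4 and 11.9 at the Ifit3 promoter. The log2 fold change of Ifnb1 was 0.36 ± 0.41 (FDR 0.594). Among the 8 receptor and kinase genes Ifngr1, a chain of the interferon gamma receptor, was called lower (12.5%, beside 16.7% of all promoter peaks). Its promoter had a signal of 308 and 327 in hypoxia, against 122 and 160 in normoxia, with a log2 fold change of -0.70 ± 0.11 (FDR 7.8e-05). The strongest not called was Jak1, a kinase of both receptors, at -0.20 ± 0.12 (FDR 0.250). Among the 6 other transcription factors measured none was called, and Stat3, which serves many cytokines, had the strongest peak, at -0.20 ± 0.11 (FDR 0.210).

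Among the 12 sensors and adaptors 2 were called lower (16.7%, the same as the share of all promoter peaks). They were the kinase Tbk1 that activates IRF3 (-0.43 ± 0.11, FDR 0.0070) and Myd88, the adaptor of Toll-like receptors (-0.39 ± 0.10, FDR 0.0080). The Myd88 peak is shared with Acaa1a. The adaptor Ticam1 was the strongest not called (-0.34 ± 0.11, FDR 0.031). Of the 33 antiviral effectors, 29 genes had a promoter peak and shared 28 peaks, of which 2 were called lower (7.14%, beside 16.7%). Both were at genes of membrane proteins that block virus entry. The Ifitm3 promoter had a signal of 299.7 and 317 in hypoxia and 134 and 150 in normoxia (-0.64 ± 0.11, FDR 0.00014). The Ifitm2 peak (-0.36 ± 0.09, FDR 0.0078) is shared with start sites of Ifitm5, Pgghg and Gm45717. Mx2, a GTPase that blocks viruses, was the strongest not called (-0.40 ± 0.13, FDR 0.029).

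In antigen presentation 2 of 10 peaks were called lower (20%, beside 16.7% of all promoter peaks). That of Psme2 (-0.48 ± 0.10, FDR 0.0019), a proteasome activator subunit, is shared with Rnf31. That of Tapbp (-0.44 ± 0.10, FDR 0.0036), the gene of the peptide-loading protein tapasin, is shared with Zbtb22. B2m, the light chain of class I molecules, was the strongest not called (-0.42 ± 0.12, FDR 0.016). It passed the threshold with a replicate block (FDR 0.0090) and with edgeR and RLE factors on the recovered reads (FDR 0.0098). Over peaks with a mean signal of at least 5 it also passed (FDR 0.0097). Of the 5 feedback inhibitors Socs1 was called lower (20%, beside 16.7% of all promoter peaks). Its peak, shared with Tnp2, had a signal of 527 and 566 in hypoxia and 256 and 299.7 in normoxia (-0.50 ± 0.09, FDR 0.00042). The phosphatase gene Ptpn6, whose peak is shared with Grcc10, was the strongest not called (-0.26 ± 0.11, FDR 0.094). The 8 called peaks had fold changes from -0.70 to -0.36, and no member promoter lay in that range. All 8 were strong peaks by signal not divided by peak width, with mean signals from 209 (Tbk1) to 423 (Ifitm2). That places them in strength group 10, whose median log2 fold change was -0.41, while no member was above group 7. Per kb in hypoxia the 8 ran from 32.9 (Ifitm2, a peak of 16500 bp) to 118.9 (Psme2). The members ran from 15.4 (Ifit3) to 87.6 (Stat2). Ifitm2 and Myd88 were less negative than the median of group 10, and the other called peaks more negative.

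**Figure D5:**
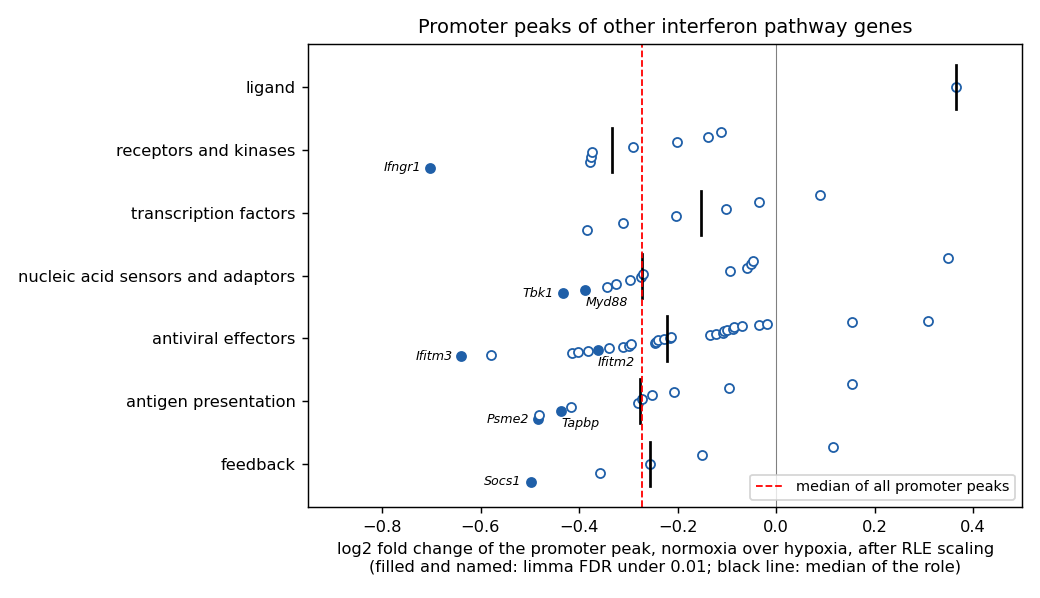
Scaled log2 fold change of the promoter peaks of 72 other interferon pathway genes by role (filled and named, FDR under 0.01; black line, median of the role; red dashed line, median of all promoter peaks at -0.27). The called peaks are all on the left, from Ifngr1 at -0.70 to Ifitm2 at -0.36, and the medians of the roles other than the ligand run from -0.33 to -0.15.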

How the data were processed

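ATAC-seq was deposited for 4 libraries of mouse MSCs, 2 in hypoxia and 2 in normoxia, numbered 1 and 2 in the labels. The authors used Bowtie2 for alignment to mm10 and Picard to drop duplicates, found peaks jointly over both conditions with the differential mode of chromstaR, and deposited a signal per peak and library, which they call RPKM. The signal was not divided by peak width: 100% of the values (tolerance 0.01 reads) were whole multiples of 1 read scaled to the library total, from which the reads were recovered. In a library of 28259470 reads, 1 read is worth 0.354, so weak peaks rest on few reads. The figure legends of the study call its replicates biologically independent experiments. Whether the libraries of a condition came from different animals is not given in the sources used here, so the p-values concern these libraries only. The fit also takes the variance of a peak partly from other peaks of like signal. A p-value is therefore not a measure of the spread between libraries at that peak alone.

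Values were divided by RLE size factors (1.14 and 1.24 in hypoxia, 0.815 and 0.892 in normoxia) and tested as log2(value + 1) with limma 3.58.1 in R 4.3.3 (lmFit, eBayes with trend and robust), two-sided, with Benjamini-Hochberg adjustment over 128055 peaks and an FDR under 0.01. The authors fitted edgeR to the same table; limma was used here because the deposited signal is not a count. The limma steps were tested on simulated data. The promoter peak of a gene was the strongest peak within 1 kb of a protein-coding start site in GENCODE M21. Strength was the mean signal as deposited, not divided by peak width, unless per kb is stated. The members, the 77 pathway genes, the marker lists and the motifs were chosen with earlier results of these data known. Named were the 9 member promoters, the neighbouring promoters in the spans, called peaks, the strongest other peak of each span and, per pathway role, up to 4 called promoters and the strongest not called. Members and pathway lists were described by counts and medians with no test of the list. The study describes the sorted cells as split between hypoxia and normoxia, so libraries that share a number may share a sort. Whether they do is not given in the sources used here. They were not treated as pairs in the main fit. Their deviations from the mean of each group correlated by 0.011 over all peaks. That value cannot decide whether they are pairs, since weak peaks rest on few reads. With a replicate block, 8471 peaks were called lower and 3913 higher, against 5857 and 2266 without it. No member promoter was called in either fit. edgeR 4.0.16 and DESeq2 1.42.0 on the recovered reads, other scalings, pseudocounts, filters, spans and libraries left out were alternatives. A gene of the pathway list and a gene of the marker list are not reported here and were left out of the counts.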

Additional observations from a re-analysis of the deposited data

How the results depend on the processing

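After RLE scaling, none of the 9 member promoters was called under any alternative tried except the values as deposited, which called 5 lower. The median log2 fold change of the member promoters, -0.13, was -0.60 as deposited, 0.022 with equal totals over nuclear peaks, -0.012 with quantile normalization, -0.0033 with cyclic loess, -0.11 with edgeR and TMM factors, -0.033 with all peaks of the spans and -0.19 to -0.11 with 1 library left out. The same scalings moved the median of all peaks, to -0.44 as deposited and 0.13 with equal totals. The transcription factor minus effector difference of -0.17 became 0.044 with cyclic loess and 0.065 with quantile normalization.

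Of the 27 member peaks, the 0 called lower became 9 as deposited, 1 with spans of 10 kb and 1 at an FDR under 0.05. The 1 called higher became 2 at an FDR under 0.05, and 0 with spans of 2 kb and as deposited. It also became 0 with quantile normalization, cyclic loess, eBayes without trend or robust estimation and DESeq2. DESeq2 gave no adjusted p for 11 member peaks. The peak past Ifit3 had an FDR of 0.0187 with quantile normalization, 0.0143 with cyclic loess and 0.0969 with the plain eBayes. The 8 pathway promoters called lower became 46 as deposited, 18 at an FDR under 0.05, 5 with DESeq2, 5 with a pseudocount of 0.1, 3 with equal totals, 0 with quantile normalization, cyclic loess and the plain eBayes, and 0 to 15 with 1 library left out. The 0 called higher became 2 with cyclic loess. Over all peaks, 5857 lower and 2266 higher became 30729 and 501 as deposited, 2503 and 4127 with equal totals, 922 and 1159 with quantile normalization, 1681 and 1819 with cyclic loess, 2585 and 271 with DESeq2, 7296 and 3257 with edgeR and RLE factors, 6788 and 3649 with TMM factors, and 0 and 0 with the plain eBayes. With a replicate block they became 8471 and 3913, and the member counts stayed at 0 lower and 1 higher, while the pathway promoters called lower became 10, B2m among them. The cause of these shifts was not tested.

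Directions that turned were of uncalled promoters, with the exceptions of Ifitm2 and Myd88. With cyclic loess and with quantile normalization in turn the log2 fold changes were 0.034 and 0.042 for Stat2, 0.030 and 0.033 for Irf1, 0.13 and 0.14 for Irf7, -0.0033 and -0.012 for Isg15, -0.12 and -0.12 for Ifit3, 0.051 and 0.040 for AW011738, 0.077 and 0.083 for Mvb12a, 0.14 and 0.14 for Jak1, 0.17 and 0.15 for Stat3, 0.029 and 0.016 for Ticam1 and 0.14 and 0.11 for Ptpn6, and with cyclic loess 0.12 for Ifitm2 and 0.031 for Myd88. With equal totals they were 0.022 for Irf7, 0.024 for Ifih1, 0.11 for Ifit1 and 0.040 for AW011738. As deposited they were -0.40 for Isg15, -0.36 for Ifit3, -0.18 for the peak in Ifit3 and -0.015 for Ifnb1. With 1 library left out they ran from -0.19 to 0.11 for Ifit1, from -0.071 to 0.23 for Ifit3 and from -0.26 to 0.024 for AW011738.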
